A study of Homo sapiens with 12 samples.

Results

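The PIAS proteins and a few unrelated nuclear proteins act as SUMO E3 ligases, and their transcripts were followed here in VCaP prostate cancer cells in which PIAS1 itself had been silenced. The genes were PIAS1, PIAS2, PIAS3, PIAS4, RANBP2, TOPORS and ZNF451, and every array probe annotated to one of these 7 symbols, under a current or an older name, was taken. These are 7 of 20046 genes with a probe on the array, and they had 13 of its 47323 probes. Of these, 10 probes were detected on all 12 arrays and entered the tests, with each of the 7 genes represented. The other 3 probes, 1 each for PIAS2, TOPORS and ZNF451, were detected on none of the 12 arrays.

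VCaP is an established line from a vertebral bone metastasis of prostate cancer. All cells were kept for 100 h in medium with 2.5% charcoal-stripped serum, which is low in steroids, and carried a pool of siRNAs for 96 h. The pool was either a control (siSCR) or directed against PIAS1 (siPIAS1), and testosterone at 100 nM was given for the last 16 h or left out. The groups were siSCR, siSCR with testosterone, siPIAS1 and siPIAS1 with testosterone, with 3 arrays in each. The series asks how loss of PIAS1 changes the androgen-regulated gene programme, and the 6 other ligases show whether the rest of the family moved with it. A single control pool, a single PIAS1 pool and a single cell line limit the model.

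SUMO is a small protein that is joined to lysines of other proteins by a cascade of enzymes that ends, for many substrates, in an E3 ligase, and SENP and DESI proteases take it off again. The PIAS proteins carry a RING-like domain called SP-RING and were first described as partners of STAT transcription factors. Several of them bind the androgen receptor and alter its activity at target genes, which is the reason for interest in them in prostate cells. RANBP2, TOPORS and ZNF451 have no SP-RING domain and reach E3 activity by other means.

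The androgen targets FKBP5 and TMPRSS2 rose in the groups labelled with testosterone. FKBP5, a chaperone partner of steroid receptors, rose by 4.01 ± 0.09 (SE) on the log2 scale after siSCR and by 3.98 ± 0.09 after siPIAS1, and TMPRSS2, a membrane protease, by 1.81 ± 0.10 and 1.25 ± 0.10. KLK2, a kallikrein protease, rose after siSCR (0.94 ± 0.11, adjusted p = 1.02e-05), and its difference after siPIAS1 was -0.17 ± 0.11 (adjusted p = 0.205). KLK3 rose in both backgrounds, by 1.69 ± 0.17 after siSCR (adjusted p = 3.20e-06) and 1.03 ± 0.17 after siPIAS1 (adjusted p = 2.48e-04). It was not detected on any array of siSCR without testosterone. Of 9 markers of luminal prostate cancer cells, 7 had a probe and 6 were detected on all 12 arrays. Of the basal markers, KRT5 and KRT14 were detected on none, nor were the blood marker PTPRC and the endothelial markers PECAM1 and CDH5. The blood markers CD68 and CD14 were detected on all 12 arrays, with group means of 9.22 to 9.53 and 6.52 to 7.30. Of 5 fibroblast and smooth muscle markers, ACTA2 was detected on all 12 arrays, COL1A2 and DCN on none, and LUM on the 6 arrays without testosterone (8.09 in siSCR and 8.62 in siPIAS1) but none with it. The part of such cells in the results was not tested. Each array detected 32.5% to 36.0% of its probes, with median scanner signals of 93.7 to 110. Replicate 3 of siPIAS1 with testosterone stood apart. Its mean correlation with the other arrays of its group was 0.978, against at least 0.986 for the 11 other arrays, and its probes deviated from those of its group with an SD of 0.43, against 0.17 to 0.28 elsewhere. Where leaving it out ended a call of a named gene or moved a called difference by over 1.5 times, the value without it is given. Calls gained by leaving it out are not all listed. Less RNA per cell and fewer cells with the transcript cannot be told apart in these bulk samples.

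The sequences before the starts of PIAS1, PIAS3 and PIAS4 are shown because these were the 3 genes of the family with a change that passed a test. Each is the 250 bases before a gene start in RefSeq, build GRCh38.p14, written 5′ to 3′ on the strand of the gene, with capitals for GC boxes (GGGCGG) and E-boxes (CACGTG) on either strand. The PIAS1 window is chr15:68054065-68054314 (plus strand), the PIAS3 window chr1:145859082-145859331 (minus strand) and the PIAS4 window chr19:4007486-4007735 (plus strand).
PIAS1: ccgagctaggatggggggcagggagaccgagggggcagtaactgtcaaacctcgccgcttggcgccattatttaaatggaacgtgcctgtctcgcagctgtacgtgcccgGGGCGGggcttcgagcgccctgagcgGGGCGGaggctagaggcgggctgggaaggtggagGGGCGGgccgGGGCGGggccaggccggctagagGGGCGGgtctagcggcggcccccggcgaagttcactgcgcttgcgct
PIAS3: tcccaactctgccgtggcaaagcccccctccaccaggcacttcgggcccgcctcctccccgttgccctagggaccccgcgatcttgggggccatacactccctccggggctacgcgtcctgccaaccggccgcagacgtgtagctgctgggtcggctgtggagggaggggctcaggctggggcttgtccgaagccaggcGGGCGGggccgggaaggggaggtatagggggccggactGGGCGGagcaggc
PIAS4: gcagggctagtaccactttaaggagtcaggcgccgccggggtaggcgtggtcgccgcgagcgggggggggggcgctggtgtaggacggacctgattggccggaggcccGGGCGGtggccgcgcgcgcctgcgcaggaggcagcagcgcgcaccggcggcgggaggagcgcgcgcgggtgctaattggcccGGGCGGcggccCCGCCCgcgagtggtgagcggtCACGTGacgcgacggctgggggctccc
GC boxes numbered 5, 2 and 3 in these windows, and the PIAS4 window held 1 E-box. Of 35116 windows of this length in the RefSeq table, 42.6% held a GC box and 6.34% an E-box. AGAACA, the hexamer that forms each arm of the androgen response element, was searched on both strands too and was in none of the 9 windows of the 7 genes, against 12.4% of all windows. No matches overlapped. A match is only a run of letters, and no match says only that these letters are not in the window.

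PIAS1 was the gene the siRNA was aimed at, and its transcript (chr15:68054315-68193847) had a single probe, ILMN_1780598, whose position relative to the siRNA targets is not given in the sources used here. Its normalized log2 signal was 10.25, 10.37 and 10.33 on the arrays of siSCR and 9.12, 8.97 and 9.23 on those of siPIAS1. With testosterone it was 11.32, 11.43 and 11.47 after siSCR and 10.52, 10.59 and 10.83 after siPIAS1. No 2 groups overlapped. The order from lowest to highest was siPIAS1, siSCR, siPIAS1 with testosterone and siSCR with testosterone.

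Without testosterone siPIAS1 lowered PIAS1 by 1.21 ± 0.11 on the log2 scale, which is 43.3% of the siSCR level (95% interval 36.8 to 51.1%, adjusted p = 1.88e-05). With testosterone 58.9% remained (upper end of the 95% interval 69.5%, a log2 difference of -0.76 ± 0.11, adjusted p = 2.36e-04). Testosterone raised PIAS1 in both backgrounds, 2.13-fold after siSCR (log2 difference 1.09 ± 0.11, adjusted p = 2.74e-06) and 2.90-fold after siPIAS1 (1.54 ± 0.11, adjusted p = 7.62e-08). The second rise exceeded the first by 0.44 ± 0.16 on the log2 scale (95% interval 0.11 to 0.78), which did not pass after adjustment over all probes (adjusted p = 0.0999).

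PIAS1 mRNA was not lower in siPIAS1 cells given testosterone than in control cells kept without it. The level in siPIAS1 with testosterone was higher than in untreated siSCR by 0.33 ± 0.11 on the log2 scale, or 1.26-fold (95% interval 0.09 to 0.57, adjusted p = 0.0214), and every array of the first group lay above every array of the second. Without replicate 3 of siPIAS1 with testosterone it was 0.24 (adjusted p = 0.0587), without replicate 1 of siSCR 0.30 (0.0740), and with only these groups in the fit 0.33 (0.0539).

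**Figure D1:**
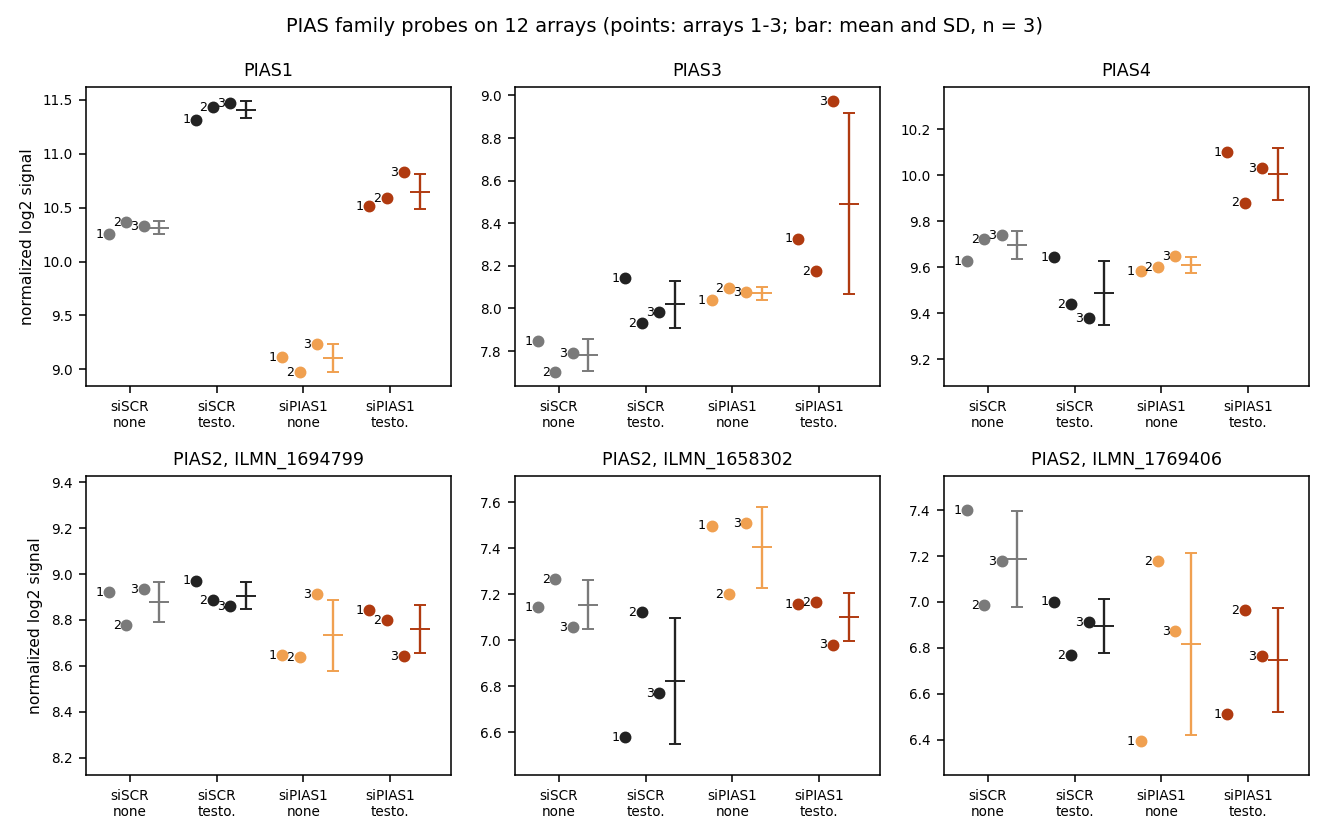
Normalized log2 signal (vertical axis) of the 6 tested probes of PIAS1, PIAS3, PIAS4 and PIAS2 in the 4 groups (horizontal axis). Numbered points are the 3 arrays of a group and bars the mean and SD. PIAS1 steps down with siPIAS1 and up with testosterone, PIAS4 stands high only in siPIAS1 with testosterone, and replicate 3 of that group lies far above the others for PIAS3.

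PIAS4, also called PIASy, is a nuclear paralog with roles in DNA damage signalling and as a transcriptional corepressor (chr19:4007736-4039386, probe ILMN_1802905). Its log2 signal was 9.63, 9.72 and 9.74 in siSCR, 9.58, 9.60 and 9.65 in siPIAS1, and 9.65, 9.44 and 9.38 in siSCR with testosterone. In siPIAS1 with testosterone it was 10.10, 9.88 and 10.03. All 3 arrays of that group were above the other 9, and the other 3 groups overlapped each other.

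With testosterone, siPIAS1 raised PIAS4 1.43-fold (log2 difference 0.52 ± 0.10, 95% interval 0.30 to 0.74, adjusted p = 0.00238), and without replicate 3 of that group the difference was 0.50 (adjusted p = 0.00379). Without testosterone the difference was -0.09 ± 0.10 (-0.31 to 0.13, adjusted p = 0.675). Testosterone likewise raised PIAS4 after siPIAS1, by 0.39 ± 0.10 (adjusted p = 0.00563). After siSCR its difference was -0.21 ± 0.10 (-0.43 to 0.01, adjusted p = 0.125), which did not pass. That fall did pass with array weights (-0.27, adjusted p = 0.0105) and in the authors' deposited normalized values (-0.20, adjusted p = 0.0350). It also passed without replicate 1 of siSCR with testosterone (-0.29, adjusted p = 0.0458). The difference between both testosterone effects was itself tested, and PIAS4 was the member whose interaction passed, at 0.60 ± 0.15 (0.29 to 0.92, adjusted p = 0.0220). Leaving out replicate 2 or 3 of siSCR, replicate 2 or 3 of siSCR with testosterone, or replicate 1 of siPIAS1 took that adjusted p above the threshold, up to 0.0677, with differences between 0.55 and 0.68 over all 12 such fits. As an average over both hormone states the siPIAS1 difference was 0.22 ± 0.07 (0.06 to 0.37, adjusted p = 0.0397, and 0.113 after 75th percentile scaling). Of the 12 fits that leave out 1 array, 9 lost this call, with adjusted p-values up to 0.103. It held without replicate 1 of siSCR with testosterone and without replicate 2 or 3 of siPIAS1 with testosterone.

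PIAS3 was named for its binding to activated STAT3 and also binds the androgen receptor (chr1:145848522-145859081, probe ILMN_1814966). It read 7.85, 7.70 and 7.79 in siSCR and 8.04, 8.10 and 8.08 in siPIAS1, so that these groups did not overlap. With testosterone it read 8.14, 7.93 and 7.98 after siSCR, against 8.33, 8.17 and 8.97 after siPIAS1. The last of these values is replicate 3 of the last group, 0.72 above the mean of the other arrays of that group.

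Averaged over both hormone states, siPIAS1 raised PIAS3 by 0.38 ± 0.12 on the log2 scale (95% interval 0.13 to 0.63, adjusted p = 0.0240), and without the deviating array the difference was 0.26 (adjusted p = 0.00837). The call was lost without a detection filter (adjusted p = 0.0592) and without replicate 2 of siSCR (0.0579), replicate 2 (0.0583) or 3 (0.0528) of siSCR with testosterone, or replicate 2 of siPIAS1 (0.0510). With testosterone the difference was 0.47 ± 0.16 (adjusted p = 0.0434), 0.23 without that array (adjusted p = 0.0931) and 0.31 in the authors' deposited normalized values (adjusted p = 0.0611). That call was lost in 9 of the 12 fits that leave out 1 array, with adjusted p-values up to 0.131. It was also lost in 3 of the 11 other alternatives (up to 0.141). Without testosterone the difference was 0.29 ± 0.16 (-0.06 to 0.64, adjusted p = 0.301). Since the deviating array sets part of the shared spread, the same difference had an adjusted p of 0.0354 when that array was left out. The testosterone effect after siPIAS1 was 0.42 ± 0.16 (adjusted p = 0.0438), and 0.18 without the array (adjusted p = 0.141). This call was lost in 10 of the 12 fits that leave out 1 array and in 4 of the 11 other alternatives (up to 0.118). The interaction was 0.18 ± 0.23 (-0.31 to 0.68, adjusted p = 0.662), and -0.06 without that array.

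PIAS2, known as PIASx, is a paralog reported as a coregulator of the androgen receptor (chr18:46803218-46920145). Its 4 probes did not give 1 answer. ILMN_1713613 is annotated to a different transcript from the other 3 and stayed at background, with scanner signals of 53.1 to 77.2. The brightest probe, ILMN_1694799, had group means of 8.88 ± 0.09 (SD, n = 3) in siSCR, 8.91 ± 0.06 in siSCR with testosterone, 8.73 ± 0.16 in siPIAS1 and 8.76 ± 0.11 in siPIAS1 with testosterone.

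The average siPIAS1 effect on PIAS2 was -0.15 for ILMN_1694799 (95% interval -0.31 to 0.02, adjusted p = 0.168), 0.26 for ILMN_1658302 (0.05 to 0.48, adjusted p = 0.0608) and -0.26 for ILMN_1769406 (-0.54 to 0.02, adjusted p = 0.148). One probe leaned up and the others down, and none passed. The last 2 probes were dim, with scanner signals of 157 to 250 and 141 to 258. Testosterone moved ILMN_1694799 by 0.03 in each background, ILMN_1658302 by -0.33 after siSCR and -0.30 after siPIAS1, and ILMN_1769406 by -0.29 and -0.07, again without a passing test.

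RANBP2 is the large nucleoporin of the cytoplasmic pore filaments, which holds SUMO-modified RANGAP1 (chr2:108719482-109842301 in the RefSeq table, probe ILMN_1654866). RANBP2 has a span of 1122820 bases there, printed as given and not checked. Its log2 signal was 6.96, 7.19 and 6.74 in siSCR and 7.25, 6.96 and 7.16 in siPIAS1. With testosterone it was 6.65, 6.47 and 7.02 after siSCR and 7.18, 7.26 and 6.99 after siPIAS1, and these groups overlapped only in their replicates 3. The siPIAS1 effect with testosterone was 0.43 ± 0.15 (0.10 to 0.76) with an adjusted p of 0.0504, at the edge of the threshold, and 0.51 (adjusted p = 0.0346) without replicate 3 of siPIAS1 with testosterone. Without testosterone it was 0.16 ± 0.15 (-0.17 to 0.49, adjusted p = 0.591). The RGPD genes are near-identical copies of parts of RANBP2 and had 13 probes on the array, 3 of them detected, so signal from them in the RANBP2 probe was not tested.

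TOPORS, a RING protein that binds topoisomerase I and p53 and serves as both a ubiquitin and a SUMO ligase (chr9:32540544-32552586), was read by ILMN_1749218. Its means were 7.99 ± 0.09 (SD, n = 3) in siSCR, 7.87 ± 0.19 in siPIAS1, 8.01 ± 0.24 in siSCR with testosterone and 7.86 ± 0.13 in siPIAS1 with testosterone. All groups overlapped. The siPIAS1 differences were -0.11 (-0.40 to 0.18) without and -0.15 (-0.44 to 0.14) with testosterone. The second probe, ILMN_2122669, had scanner signals of 92.9 to 115 and was not detected.

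ZNF451 is a zinc finger protein that extends chains of SUMO2 and SUMO3 (chr6:57090188-57170305). Its brighter probe, ILMN_1706734, had means of 9.51 ± 0.09 in siSCR, 9.29 ± 0.11 in siSCR with testosterone, 9.45 ± 0.11 in siPIAS1 and 9.35 ± 0.11 in siPIAS1 with testosterone. The dimmer probe, ILMN_1753567, had means of 7.35 ± 0.16, 7.59 ± 0.04, 7.48 ± 0.14 and 7.34 ± 0.22 in the same order. After siSCR, testosterone shifted the brighter probe by -0.23 (adjusted p = 0.107) and the dimmer one by 0.24 (adjusted p = 0.154). In each case the groups did not overlap, but the directions were opposite and neither passed. The siPIAS1 differences of both probes ranged from -0.25 to 0.13 with no passing test, and ILMN_1710735 stayed at background with signals of 66.1 to 80.8.

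**Figure D2:**
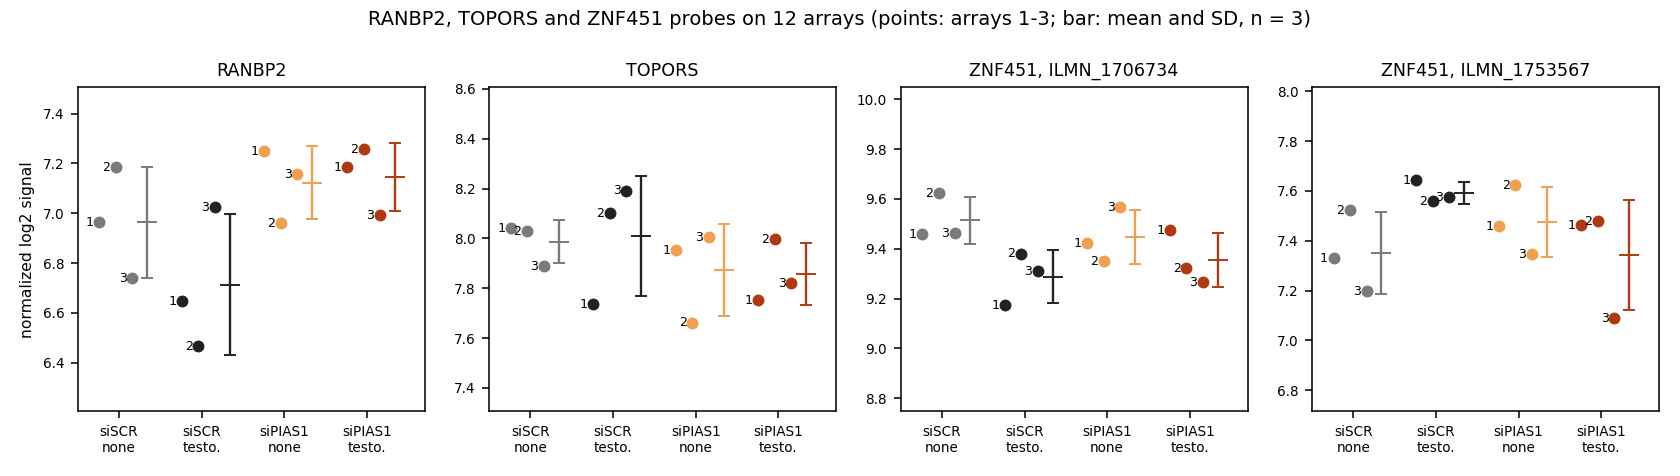
Normalized log2 signal (vertical axis) of the tested probes of RANBP2, TOPORS and ZNF451 in the 4 groups (horizontal axis). Numbered points are the 3 arrays of a group and bars the mean and SD. No probe passed a test here, and with testosterone after siSCR the ZNF451 probes lie on opposite sides of untreated siSCR.

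Counted over the family, siPIAS1 without testosterone changed 1 of the 10 tested probes, PIAS1 itself, which was lower. Of all 17835 probes tested, 9.58% passed in this comparison. None of the 9 probes of the other ligases passed in limma's test, and 0 of them had an unadjusted p under 0.05. PIAS3 did pass with array weights (adjusted p = 0.0230), with only these groups fitted (0.0365) and without replicate 3 of siPIAS1 with testosterone (0.0354). With testosterone, siPIAS1 changed 3 of 10 probes, PIAS1 downward and PIAS3 and PIAS4 upward, against 28.9% of all probes. The PIAS3 call was lost in 9 of the 12 fits that leave out 1 array. As an average over both hormone states the same 3 probes passed, in the same directions, against 28.8% of all probes. For PIAS4 this average combines differences of -0.09 without and 0.52 with testosterone.

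Testosterone changed 1 of 10 probes after siSCR, PIAS1 upward, where 39.9% of all probes passed. Among the other 9 probes 1 had an unadjusted p under 0.05, ILMN_1658302 of PIAS2. After siPIAS1 it changed 3 of 10, PIAS1, PIAS3 and PIAS4, all upward, where 51.3% passed. Here the PIAS3 call was lost in 10 of the 12 fits that leave out 1 array. The interaction passed for 1 of 10 probes, PIAS4, against 7.76% of all probes. Between siPIAS1 with testosterone and untreated siSCR, 3 of 10 probes passed, all higher, against 53.4% of all probes, and these were PIAS1, PIAS3 (0.71 ± 0.16, adjusted p = 0.00221) and PIAS4 (0.31 ± 0.10, adjusted p = 0.0212). Without replicate 3 of siPIAS1 with testosterone the PIAS3 difference was 0.47 (adjusted p = 0.00124). The PIAS4 call was lost with only these groups fitted (adjusted p = 0.0529), without replicate 1 of siSCR (0.0778) and without replicate 1 of siPIAS1 with testosterone (0.0757). The shares for the members were close to or below those of all probes. The comparisons share groups and are not independent of each other.

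**Figure D3:**
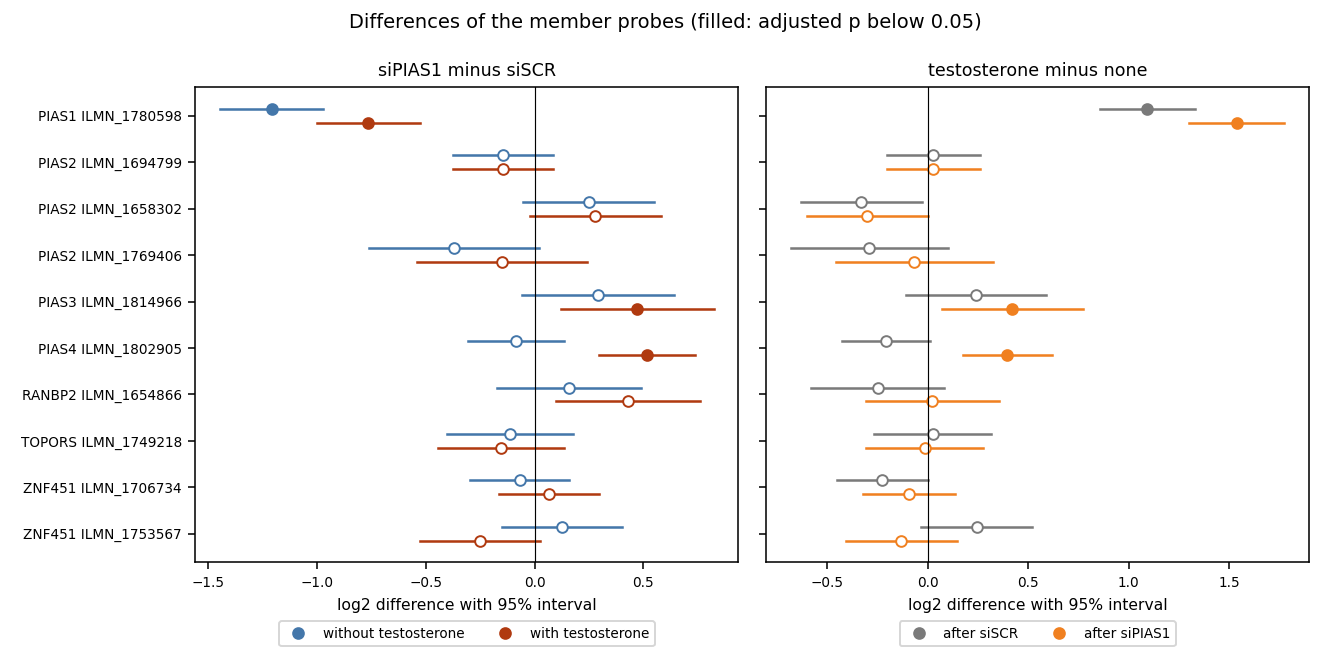
Log2 differences (horizontal axis) with 95% intervals of the 10 tested probes (vertical axis), for siPIAS1 against siSCR on the left and testosterone against none on the right. Filled points passed at an adjusted p under 0.05. PIAS1 is at -1.21 and -0.76 on the left, and PIAS3 and PIAS4 are filled in the comparisons that hold siPIAS1 with testosterone.

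The genes whose log2 signal over the 12 arrays ran most like that of PIAS1, out of 10710 genes, were YARS1 (Pearson r = 0.98), RAPGEF5 (0.98), RRP15 (0.97), MIEF1 (0.96) and SAPCD2 (0.96). YARS1 is the cytosolic tyrosyl-tRNA synthetase. Its means were 10.68 in siSCR, 11.03 in siSCR with testosterone, 10.34 in siPIAS1 and 10.79 in siPIAS1 with testosterone, the same order of groups as PIAS1. For PIAS4 the nearest were ZBTB25 (0.97) and USP51 (0.96), and for PIAS3 PTPN23 (0.97) and BACC1 (0.96). PIAS2 by its brightest probe was nearest to ATP5F1B (0.87) and SYN2 (0.86), RANBP2 to MOB1B (0.82) and ZNF638 (0.79), TOPORS to PSMA3 (0.89) and PDCL3 (0.88), and ZNF451 to MAP7D3 (0.84) and USP37 (0.82). These correlations describe 12 arrays that share 4 group means. They include the deviating array, on which PIAS3 lay 0.72 above the mean of the others of its group. The nearest genes were not ranked again without that array. Among the members, PIAS1 correlated at 0.11 with PIAS3 (-0.07 without the deviating array) and at -0.04 with PIAS4. With the PIAS2 probes ILMN_1694799, ILMN_1658302 and ILMN_1769406 it correlated at 0.45, -0.78 and 0.03, with RANBP2 at -0.50, with TOPORS at 0.31, and with the ZNF451 probes at -0.46 and 0.10.

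The rest of the SUMO pathway was followed through 6 lists with 40 genes, of which 29 had a detected probe. Each gene was represented by its brightest detected probe. siPIAS1 without testosterone raised 2 of 29 and lowered 2, against 11.2% of all genes called, and with testosterone it raised 3 and lowered 5, against 30.8%. Without replicate 3 of siPIAS1 with testosterone, 5 were higher and 3 lower in that comparison. Testosterone raised 3 and lowered 6 after siSCR, against 42.8%, and raised 5 and lowered 11 after siPIAS1, against 53.7%. After 75th percentile scaling the last split was 7 and 8. The interaction passed for 1 gene, against 8.43%. The list medians lay between -0.11 and 0.04 in these comparisons, beside medians of all genes of -0.03 to -0.00.

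Among 8 measured genes listed as other SUMO E3 or SP-RING proteins, ZMIZ1 had the clearest change. ZMIZ1, also called ZIMP10, carries an SP-RING like that of the PIAS proteins and is an androgen receptor coactivator. Its log2 signal was 11.57 ± 0.19 (SD, n = 3) in siSCR and 12.67 ± 0.11 in siPIAS1, and with testosterone 10.91 ± 0.15 and 11.98 ± 0.10. siPIAS1 raised it by 1.10 ± 0.12 without testosterone (adjusted p = 9.97e-05) and by 1.07 ± 0.12 with it (3.74e-05). Its testosterone difference was -0.65 ± 0.12 after siSCR (adjusted p = 7.28e-04) and -0.69 ± 0.12 after siPIAS1 (4.03e-04). This is the reverse of the direction of PIAS1 in all 4 comparisons. The relative ZMIZ2 did not pass in any of them. UHRF2, a RING protein related to UHRF1, fell with siPIAS1 in the presence of testosterone (-0.60 ± 0.19, adjusted p = 0.0290, and -0.35 with adjusted p = 0.0803 without replicate 3 of siPIAS1 with testosterone) and with testosterone after siPIAS1 (-0.97 ± 0.19, adjusted p = 6.92e-04). ZBED1, known as a DREF homolog, fell with testosterone in each background (differences of -0.62 ± 0.18, adjusted p = 0.0150 and 0.0121, the second 0.0612 after 75th percentile scaling), and after siPIAS1 the difference was -0.34 without that replicate 3. With testosterone its siPIAS1 difference was 0.22 ± 0.18 (adjusted p = 0.390), and 0.51 (adjusted p = 0.00264) without that replicate.

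Of 6 measured SUMO proteases, SENP7, which edits SUMO2 and SUMO3 chains, rose with siPIAS1 by 0.58 ± 0.13 without testosterone (adjusted p = 0.0115) and 0.42 ± 0.13 with it (adjusted p = 0.0233, and 0.0919 in the authors' deposited normalized values). DESI1, a papain-like deSUMOylating isopeptidase, changed direction with the hormone. Its siPIAS1 difference was -0.42 ± 0.11 without testosterone (adjusted p = 0.0253) and 0.33 ± 0.11 with it (adjusted p = 0.0310, and 0.105 after 75th percentile scaling), and its interaction was the passing one, 0.75 ± 0.15 (adjusted p = 0.00794). With testosterone siPIAS1 also lowered SENP6 (-0.43 ± 0.14, adjusted p = 0.0407) and DESI2 (-0.35 ± 0.11, adjusted p = 0.0324), and without replicate 3 of siPIAS1 with testosterone their adjusted p-values were 0.104 and 0.0552. Testosterone after siPIAS1 raised DESI1 by 0.64 ± 0.11 and SENP5 by 0.47 ± 0.16 and lowered SENP6, SENP7 and USPL1, with differences of -0.45, -0.52 and -0.45. SENP7 also fell after siSCR (-0.36 ± 0.13, adjusted p = 0.0338, and 0.138 in the authors' deposited normalized values), and its interaction did not pass (adjusted p = 0.609). Without replicate 3 of siPIAS1 with testosterone, SENP5 was at 0.25 (adjusted p = 0.0926), SENP6 at -0.37 (0.0543) and USPL1 at -0.29 (0.0224).

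Of the 4 measured conjugation genes, none passed in either siPIAS1 comparison by limma, and 0 had an unadjusted p under 0.05. SAE1, a subunit of the E1 enzyme, fell with testosterone after siSCR (-0.43 ± 0.11, adjusted p = 0.00727, and 0.113 after 75th percentile scaling) and after siPIAS1 (-0.52 ± 0.11, adjusted p = 0.00159, and 0.0540 after that scaling). SUMO2 fell after siPIAS1 (-0.55 ± 0.13, adjusted p = 0.00334). SUMO4 was detected on all 6 arrays without testosterone and on none of the 6 with it. Of 5 measured RAN and nuclear pore genes, RCC1, the exchange factor for RAN, fell with siPIAS1 (-0.62 ± 0.12 without testosterone, adjusted p = 0.00490, and -0.42 ± 0.12 with it, adjusted p = 0.0160). RAN itself fell with siPIAS1 in the presence of testosterone (-0.46 ± 0.11, adjusted p = 0.00679). Without testosterone RAN differed by -0.26 ± 0.11 (adjusted p = 0.168, 0.0255 after 75th percentile scaling and 0.0344 in the authors' deposited normalized values). RANGAP1, the partner held by RANBP2, differed by -0.26 without testosterone (adjusted p = 0.146, and 0.0489 after 75th percentile scaling) and by -0.22 as an average over both hormone states (adjusted p = 0.0443). This average also passed for RCC1 (-0.52, adjusted p = 4.47e-04), RAN (-0.36, adjusted p = 0.00365) and NUP88 (-0.21, adjusted p = 0.0396), but not for NUP214 (-0.11, adjusted p = 0.271). Of all probes, 28.8% passed for the average. In the other lists it passed for ZMIZ1 (1.09, adjusted p = 1.26e-06), SENP7 (0.50, adjusted p = 0.00101) and DESI2 (-0.31, adjusted p = 0.0106).

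Among 5 measured partners of PIAS proteins, none passed in either siPIAS1 comparison by limma. At an unadjusted p under 0.05 were STAT3 without testosterone (0.31 ± 0.13, adjusted p = 0.146) and SMAD4 with it (-0.28 ± 0.10, adjusted p = 0.0576, and 0.00908 in the authors' deposited normalized values). Testosterone raised HIPK2, a nuclear kinase, by 1.57 ± 0.11 after siSCR (adjusted p = 7.14e-08) and 1.53 ± 0.11 after siPIAS1 (adjusted p = 7.70e-08). STAT3, the partner that gave PIAS3 its name, rose by 0.78 ± 0.13 after siSCR (adjusted p = 2.23e-04) and 0.45 ± 0.13 after siPIAS1 (adjusted p = 0.00961). Its interaction did not pass (-0.33 ± 0.18, adjusted p = 0.266). The other detected STAT3 probes rose by 0.68 and 0.69 after siSCR and by 0.59 and 0.70 after siPIAS1. With testosterone their siPIAS1 differences were 0.19 and 0.33, against -0.02 for the brightest probe. SMAD4, the shared transducer of TGF-beta signals, rose after siSCR (0.55 ± 0.10, adjusted p = 6.31e-04), and its difference after siPIAS1 was 0.20 ± 0.10 (adjusted p = 0.112). The latter passed after 75th percentile scaling (0.35, adjusted p = 0.0127) and in the authors' deposited normalized values (0.20, adjusted p = 0.0328). The SMAD4 interaction did not pass (-0.35 ± 0.14, adjusted p = 0.153).

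**Figure D4:**
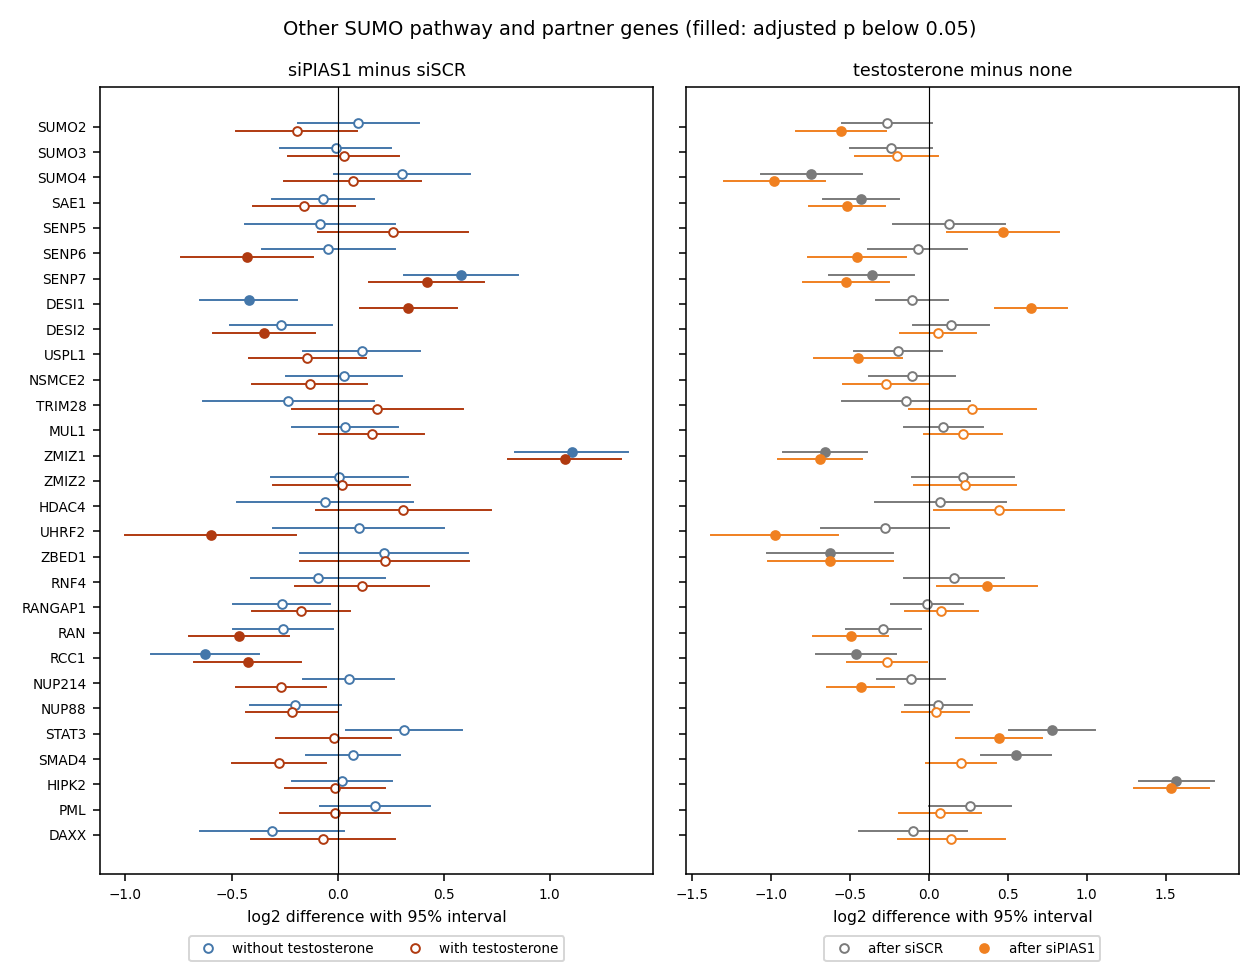
Log2 differences (horizontal axis) with 95% intervals of 29 other SUMO pathway and partner genes (vertical axis), for siPIAS1 against siSCR on the left and testosterone against none on the right. Filled points passed at an adjusted p under 0.05. ZMIZ1 lies farthest to the right for siPIAS1, and HIPK2 for testosterone. SUMO4 was not detected with testosterone, so its values on the right and its difference with testosterone on the left rest on undetected signals.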

How the data were processed

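The members and gene lists were chosen with earlier results of these data known. RNA of 12 VCaP samples was hybridised to Illumina bead arrays. Per the file headers, the deposited scanner intensity of a probe was not normalized. Each intensity came with a detection p-value, per the file headers. A further table holds log2 values normalized by the authors, and the submitters' processing notes name lumi, with version and settings not given in the sources used here. That table ranked the probes as the scanner signals did (lowest rank correlation 1). Over 1879 probes above 2000 on every array its differences followed the log2 signal ratios with slopes of 0.834 to 1.08, so genes were not centred and the direction is kept. Column medians lay between 7.60 and 7.61, and its exact transform stays unknown. It served as an alternative.

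Intensities were background-corrected and quantile-normalized by neqc (limma 3.58.1, R 4.3.3, offset 16), which compresses folds at low signal. Of the probes, 30113 had 1 gene symbol, 8 several and 17202 no gene listed, by the platform annotation updated through the RefSeq table of GRCh38.p14. Probes with a detection p under 0.01 on at least 3 arrays were tested (17835). One limma model of 4 group means over 12 arrays (8 residual and 5.55 prior degrees of freedom) gave two-sided moderated tests, adjusted by Benjamini-Hochberg over all tested probes, with a threshold of 0.05. The code was tested on simulated data. Differences are log2 ± SE and levels mean ± SD. Precision is limited by the number of arrays. The labels number replicates without saying that they were separate cultures, so p-values measure only the spread between these samples. With 3 arrays a group, exact permutation p-values start at 0.1, so none were used.

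All probes of the 7 genes were described. Of the lists, members that passed in at least 1 comparison could be named, and the genes most correlated with each member were taken by rank. Alternatives were other background, scaling, offset, filter, feature, block, weight and sample choices, the authors' values and leaving out each array. Same-numbered arrays of different groups did not deviate together (18 pairs, r = -0.26 to 0.18, with 1 over 0.1), so the numbers were not taken as pairs.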

Additional observations from a re-analysis of the deposited data

Results flagged for a closer look

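In PIAS4 the response to testosterone differed between both siRNAs. It was -0.21 after siSCR (9.70 to 9.49) and 0.39 after siPIAS1 (9.61 to 10.00), a difference of 0.603 on the log2 scale (SE 0.15, adjusted p = 0.0220 by limma's interaction test). In DESI1 it was -0.11 after siSCR and 0.64 after siPIAS1, a difference of 0.752 (SE 0.15, adjusted p = 0.00794). In SUMO2 the 3 siPIAS1 arrays were all above the mean of siSCR without testosterone (13.22 against 13.12), and all below it with testosterone (12.67 against 12.86). The difference of -0.289 (SE 0.19) did not pass the interaction test (adjusted p = 0.358). Single genes were not searched for deviating arrays, since each group has 3.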

How the results depend on the processing

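PIAS1 fell with siPIAS1 and rose with testosterone under every alternative run, and the siPIAS1 effect on PIAS4 with testosterone passed under all of them (adjusted p between 3.36e-04 and 0.0310). The excess of PIAS1 in siPIAS1 with testosterone over untreated siSCR was 0.33 with only these groups fitted (adjusted p = 0.0539), and leaving out 1 array gave 0.240 to 0.394. For siPIAS1 without testosterone the count of all probes moved from 1708 to 4430 with array weights and 3366 with only its groups, and 757 to 3290 leaving out 1 array. For siPIAS1 with testosterone, 2754 passed with only its groups, and 3326 to 5615 leaving out 1 array. The interaction gave 3368 with array weights and 838 to 1925 leaving out 1 array. With 1 probe per gene, fewer features being tested, 5899 passed for testosterone after siPIAS1 and 6104 between siPIAS1 with testosterone and untreated siSCR. Of the 10 member probes, siPIAS1 without testosterone changed 2 with array weights and 2 with only its groups (1 to 2 leaving out 1 array). The added probe was that of PIAS3. Testosterone after siSCR changed 3 in the authors' values and 5 with array weights (1 to 2), and the ranges leaving out 1 array were 0 to 1 for the interaction, 2 to 5 for the average siPIAS1 effect and 1 to 4 for the last comparison. For testosterone after siSCR, the authors' values added PIAS4 and ILMN_1706734 of ZNF451, both lower. Array weights added these, ILMN_1658302 of PIAS2 (lower) and PIAS3 (higher). With the replicate number as a block, PIAS4 had an average siPIAS1 difference of 0.22 with an adjusted p of 0.0571. Slide as a block was not run, since the file headers give no slide. The cause of these shifts was not tested.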
